A study of Drosophila melanogaster with 12 samples.

Results

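The cuticle protein genes of the Drosophila melanogaster wing described here are the Cpr, Lcp and Tweedle (Twdl) genes, the pupal cuticle gene Pcp, and the single genes Edg78E, Edg91 and Acp65Aa. They were chosen by symbol alone: a name starting with Cpr and a digit, with Lcp, with Twdl or with Pcp, and the 3 single genes. The Ccp84A genes and Edg84A were left out. The rule found 114 genes among the 15240 of the RNA table.

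Insect cuticle is a sheet of chitin fibres set in protein, laid down at the apical face of the epidermis and later hardened and coloured. Most Cpr and Lcp proteins carry the Rebers-Riddiford consensus, a stretch that binds chitin, and the Tweedle proteins form a separate cuticle protein family, of which TwdlD is known for its effect on body shape. Different sets serve the larval, pupal and adult cuticles. Pulses of the steroid ecdysone time each switch, and many cuticle genes are known to be switched on as a pulse declines. EcR is the ecdysone receptor, and Edg stands for a gene that depends on ecdysone.

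RNA was sequenced from wings of female flies raised at 25 degrees, in 8 libraries forming 4 groups of 2. Wings came from wandering larvae, 6 h before puparium formation (-6 h), or from animals staged at the white prepupa and taken 6 h after it (+6 h). Wild type was +/+ on every chromosome. The EcR-RNAi animals were yw/yw and carried Vg-GAL4, UAS-Flp and Tub>>CD2>>GAL4, with UAS-GFP and UAS-EcR-RNAi[104]. In this flip-out system GAL4 from the vestigial driver starts the recombinase, and cells that recombine, with their descendants, then make GAL4 from the tubulin promoter. Cells in which this did not happen kept normal EcR. The control lacked GAL4, GFP and the hairpin and differed in background, so these cannot be told apart from loss of EcR. Whether replicates came from separate animals is not in the labels. The tests therefore rest on the spread between the 2 libraries of each group, and part of it may be technical. In the main model this spread is pooled for each gene over the 4 groups. A wide gap between the libraries of any group thus widens the standard error of every comparison of that gene. This holds for comparisons without that group too.

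Levels are normalised counts, the reads of a gene divided by a size factor for its library, and pairs of values are given as replicate 1 and replicate 2. Libraries held from 6444939 to 10016236 reads. The EcR transcript itself rose from 2194 and 1924 to 5764 and 6852 in wild type. In EcR-RNAi it started at 1634 and 1307 and reached 2201 and 2081. It was lower in EcR-RNAi at both stages (log2 fold change -0.49 ± 0.14 SE, limma padj = 0.0449, and -1.55 ± 0.14, padj = 1.0e-05). Of the wing markers, vg lay between 1651 and 2233 and nub between 1842 and 2999 over the 8 libraries. Gut markers summed to 1388 and 373 in EcR-RNAi at -6 h and to at most 5.12 in every other library, with Jon99Cii at 0 throughout. Fat body markers summed to 1994 and 4883 in EcR-RNAi at -6 h and to 635 and 237 in wild type at -6 h, 450.4 and 318 in wild type at +6 h, and 850.1 and 979 in EcR-RNAi at +6 h, with Adh at 0 in all. The part of these other tissues in the results for EcR-RNAi at -6 h was not tested. Summed markers of haemocytes ranged from 208 to 781, of myoblasts from 5404 to 14543 (highest in wild type at +6 h), of wing epithelium from 15829 to 21636 and of sensory cells and neurons from 1123 to 1663.

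Of the 114 genes, 32 had no read in any library and 47 more had a mean under 10 normalised counts over the 8 libraries. The remaining 35 were tested, among 7775 genes in all. By family, 24 of 70 Cpr genes, 5 of 15 Lcp genes and 4 of 25 Tweedle genes were tested, with 16, 4 and 11 silent. Pcp, a gene nested in an intron of Gart, was under the mean, Acp65Aa, an adult cuticle gene, was silent, and Edg78E and Edg91 were tested. Just under the threshold were Cpr65Ea at 7.11, Cpr64Ad at 8.27 and Cpr67Fa2 at 8.42, and just over it Lcp4 at 10.6, Cpr62Bc at 13.3 and Lcp1 at 13.7. No library of a gene under the mean passed 32.8. A gene can reach the mean through 1 group alone, so counts over the 35 do not speak for all 114.

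The genes sit close together in the genome. In the RefSeq annotation of Release 6, 77 of them fall into 19 runs in which each protein-coding neighbour is again one of the 114. The longest run, on 3L, goes from Lcp65Ag3 to Acp65Aa with 16 genes, of which only Lcp65Ag2 and Lcp65Ad were tested, 6 were under the mean and 8 were silent. The 12 Tweedle genes from TwdlM to TwdlD on 3R held no tested gene, and 8 of them were silent. In contrast, both genes of the pairs Cpr47Ea and Cpr47Eb on 2R and Cpr97Ea and Cpr97Eb on 3R were tested. Reads of close copies, such as Lcp1 and Lcp2, the Lcp65A genes or Cpr67Fa1 and Cpr67Fa2, may be split between them, so their levels are uncertain.

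Together the 114 genes took a small share of the wing's reads, largest in EcR-RNAi at +6 h. Brackets give 95% Wilson intervals, which cover counting error only. The wild-type share was 0.127% (0.124 to 0.130) and 0.119% (0.117 to 0.122) at the early stage, and at +6 h 0.623% (0.617 to 0.629) and 0.245% (0.242 to 0.248). In EcR-RNAi it was 0.132% (0.130 to 0.135) and 0.335% (0.331 to 0.339) at -6 h, and 1.40% (1.39 to 1.41) and 1.57% (1.56 to 1.58) at +6 h. Both libraries of EcR-RNAi at +6 h lay above all others, while replicates of EcR-RNAi at -6 h and of wild type at +6 h differed by more than 2-fold. With bulk tissue, fewer cells making a transcript and less of it per cell cannot be told apart.

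**Figure D1:**
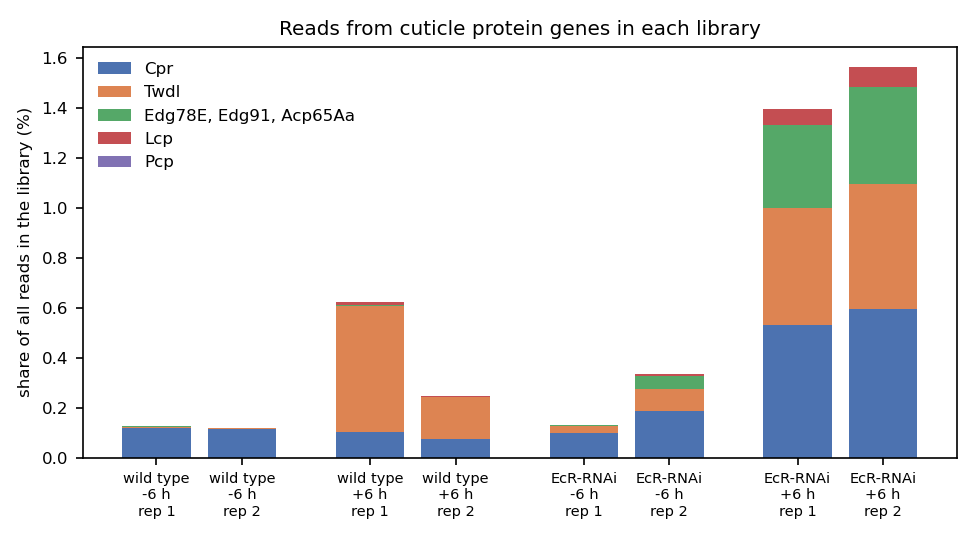
Share of all reads (%, vertical axis) from cuticle protein genes in each of the 8 libraries (horizontal axis), with the bar split by family. Both EcR-RNAi libraries at +6 h (1.40% and 1.57%) are the tallest, and the Tweedle segment fills most of the wild-type bars at +6 h.

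The make-up of that share changed with stage. In wild type at -6 h a single gene, Cpr49Ac, gave 69.4% and 70.2% of the reads from cuticle protein genes, followed by Cpr12A with 7.59% and 7.93%. In wild type at +6 h Tweedle genes gave 81.4% and 69.0%, led by TwdlT with 43.7% and 36.5% and TwdlE with 31.1% and 27.2%. In EcR-RNAi at +6 h Edg78E led with 23.2% and 24.2%, ahead of TwdlT with 21.6% and 21.6%, Cpr100A with 11.9% and 10.4%, and Cpr65Ec with 12.0% in replicate 2. These shares depend on transcript length as well as on the number of transcripts, so they do not rank genes by expression. By mean level, 23 of the 35 tested genes were highest in EcR-RNAi at +6 h and 1 at -6 h, while 7 peaked in wild type at +6 h and 4 at -6 h. The same count was not made over all tested genes. Some of the 35 also reach the mean of 10 only through 1 group and average under 10 over the other libraries. These are Cpr47Ec, Cpr62Bc and Cpr66Cb with EcR-RNAi at +6 h, and Cpr47Ea with wild type at +6 h. The count is therefore no trait of these genes.

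Replicates of some groups disagreed more for these genes than for the rest of the table. The median difference between replicates, on the scale of log2(normalised count + 1), was 1.22 in EcR-RNAi at -6 h for the 35 genes against 0.17 for all tested genes. The wild-type groups followed with 0.66 against 0.17 (+6 h) and 0.45 against 0.17 (-6 h), and EcR-RNAi at +6 h had 0.14 against 0.14. These medians were not matched for level. Some of the 35 genes had few reads, such as TwdlC with 4 and 1 in wild type at -6 h. The part of counting error in these gaps was not tested. In EcR-RNAi at -6 h, 27 of the 35 were higher in replicate 2 and 18 were over 2-fold apart. In wild type at +6 h, 27 were higher in replicate 1 and 14 were over 2-fold apart. No gene of the 35 was over 2-fold apart in EcR-RNAi at +6 h. Cpr72Eb shows the size of this gap, at 17.5 and 449 normalised counts in EcR-RNAi at -6 h, and Lcp65Ad at 860.5 and 69.2 in wild type at +6 h. Results that rest on replicate 2 of EcR-RNAi at -6 h or replicate 1 of wild type at +6 h are given below with and without it.

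**Figure D2:**
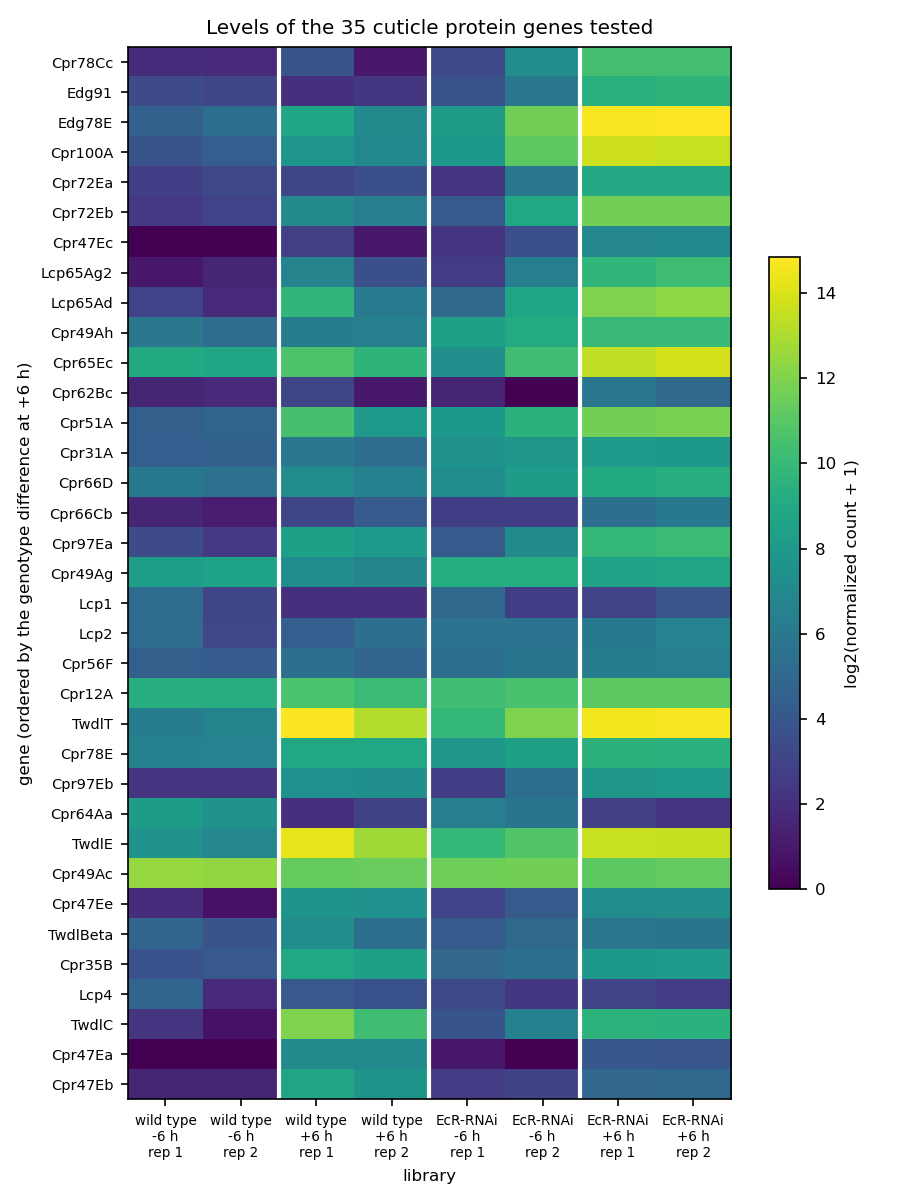
Level of each of the 35 tested genes (rows) in each of the 8 libraries (columns), as log2(normalised count + 1) on the colour scale, with rows ordered by the genotype difference at +6 h. Genes near the top are brightest in both EcR-RNAi libraries at +6 h, and replicate 2 of EcR-RNAi at -6 h is brighter than replicate 1 for 27 of the 35 genes.

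The first comparison asks how these genes change from -6 h to +6 h in wild-type wings. Of the 35 tested, 18 rose and 3 fell, where 29.1% and 26.7% of all 7775 tested genes did, 55.7% in either direction, at a limma adjusted p (padj) under 0.05. The median log2 fold change was 2.02 over the 35 and -0.01 over all tested genes, and it was 2.02 too with genes that had no read in a group set at their bounds. All 4 tested Tweedle genes rose, 14 Cpr genes rose and 3 fell, and none of the 5 Lcp genes or of the 2 Edg genes passed the test. Quantile scaling moved the median over every tested gene by -0.23, and the median of the 35 was then 1.00, with 15 higher and 5 lower.

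TwdlC had the largest change, from 3.87 and 0.641 normalised counts at -6 h to 3998 and 1249 at +6 h (log2 fold change 9.63 ± 1.20 SE, limma padj = 0.00269). TwdlT went from 74.5 and 102 to 27787 and 8934 (7.48 ± 0.92, limma padj = 0.00264). TwdlE went from 198 and 116 to 19780.4 and 6663 (6.23 ± 0.66, limma padj = 0.00138). In each of these genes the stages were far apart, and replicate 1 at +6 h was well above replicate 2. TwdlBeta, listed under a synonym in the annotation, went from 27.1 and 13.5 to 158 and 40.9 (2.02 ± 0.65, limma padj = 0.0351).

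Among the Cpr genes the largest increases came from the 47E region on 2R. Cpr47Ea had no read in either library at -6 h and stood at 139 and 136 at +6 h, at least 119-fold higher when the empty group is given 3 reads (fitted log2 fold change 7.11 ± 0.56, limma padj = 1.1e-06). Its neighbour Cpr47Eb went from 1.94 and 1.92 to 410.1 and 203 (6.63 ± 0.40, limma padj = 1.3e-07). Cpr47Ee went from 2.90 and 0.641 to 204 and 181 (6.26 ± 0.47, limma padj = 2.0e-06). The -6 h group held 4 reads of Cpr47Ee and 5 of Cpr47Eb, so these increases start from almost nothing. Cpr47Ea reaches the mean of 10 only through wild type at +6 h, so its call as higher follows in part from the filter. The adjacent genes Cpr97Ea and Cpr97Eb also rose, from 9.68 and 4.48 to 344 and 264 (5.31 ± 1.01, limma padj = 0.0109) and from 3.87 and 3.84 to 173 and 167 (5.14 ± 0.78, limma padj = 0.00199). Cpr35B went from 12.6 and 16.7 to 450.4 and 343 (4.67 ± 0.24, limma padj = 3.7e-08), and Cpr51A from 21.3 and 26.3 to 1447 and 253 (4.62 ± 1.03, limma padj = 0.0195).

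Cpr78E went from 91.0 and 94.8 to 476 and 475 (2.34 ± 0.17, limma padj = 5.6e-07). Cpr66Cb went from 1.94 and 1.28 to 7.46 and 17.8 (2.29 ± 0.53, limma padj = 0.0033). Smaller increases, between 0.74 and 1.92 on the log2 scale, were those of Cpr47Ec, Cpr31A, Cpr12A, Cpr66D and Cpr56F. Cpr47Ec had no read at -6 h and 5 at +6 h, at least 2.66-fold higher.

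The genes that fell were Cpr49Ac, Cpr49Ag and Cpr64Aa. Cpr49Ac, which had the most reads of the cuticle protein genes at -6 h, went from 5867 and 5376 to 2529 and 2713 (-1.10 ± 0.12, limma padj = 1.1e-05). Cpr49Ag went from 323 and 393 to 146 and 106 (-1.51 ± 0.16, limma padj = 1.2e-05). Cpr64Aa went from 283 and 192 to 2.98 and 6.29 (-5.44 ± 0.40, limma padj = 6.6e-07). The stages did not overlap in any of the 3, which was so for 30 of the 35 genes and for 78.0% of all tested genes. The larval genes Lcp1 and Lcp2 did not pass the test, at 35.8 and 7.69 against 2.98 and 3.15 for Lcp1 (-2.14 ± 0.87, limma padj = 0.0625) and 35.8 and 8.33 against 20.9 and 42.0 for Lcp2 (0.73 ± 0.65, limma padj = 0.381). Edg78E stood at 22.3 and 40.4 against 435 and 136 and was not called either (2.98 ± 1.36, limma padj = 0.137). Its standard error also draws on EcR-RNAi at -6 h, where the libraries stood at 279.7 and 3196.

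Of the 21 calls, 14 held in every alternative run. When replicate 1 of wild type at -6 h was left out, the calls of Cpr47Ec, Cpr51A, Cpr56F and Cpr66D ended (padj = 0.0653 to 0.0914). When replicate 2 was left out instead, the calls of Cpr47Ec, Cpr51A, Cpr56F, Cpr66D, Cpr97Ea and TwdlBeta ended (padj = 0.0652 to 0.202), and the number of increases was 12. Leaving out replicate 1 of wild type at +6 h ended the calls of Cpr47Ec, Cpr56F, Cpr66D, Cpr97Ea and TwdlBeta (padj = 0.0544 to 0.299), with 13 increases. Without either library of EcR-RNAi at +6 h, Cpr47Ec, Cpr56F, Cpr66D and TwdlBeta lost theirs (padj = 0.0549 to 0.0767), and without replicate 1 of EcR-RNAi at -6 h TwdlBeta did (padj = 0.0522). With either library of EcR-RNAi at -6 h left out, Cpr100A, Cpr49Ah, Cpr72Eb and Edg78E were also called higher, and Edg91 and Lcp1 lower. With all libraries kept, DESeq2 added Cpr100A, Cpr49Ah, Cpr72Eb, Edg78E, Lcp65Ad and Lcp65Ag2 as higher and Lcp1 as lower. In the fit without replicate 1 of wild type at +6 h, log2 fold changes also shrank to 1.03 for Cpr47Ec, 0.41 for Cpr56F and 1.06 for TwdlBeta. Apart from omitted libraries, the call of Cpr56F ended with DESeq2, edgeR, TMM, upper-quartile or quantile scaling, no filter, the replicate block and a fit of the 4 wild-type libraries alone (padj = 0.0574 to 0.211). That of Cpr66D ended with edgeR, upper-quartile scaling and the block (padj = 0.0621 to 0.0764), those of Cpr51A and TwdlBeta in the 4-library fit (padj = 0.0851 and 0.108), that of Cpr66Cb with quantile scaling (padj = 0.127), and that of Cpr47Ec with a pseudocount of 5, quantile scaling or the 4-library fit (padj = 0.135 to 0.273).

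**Figure D3:**
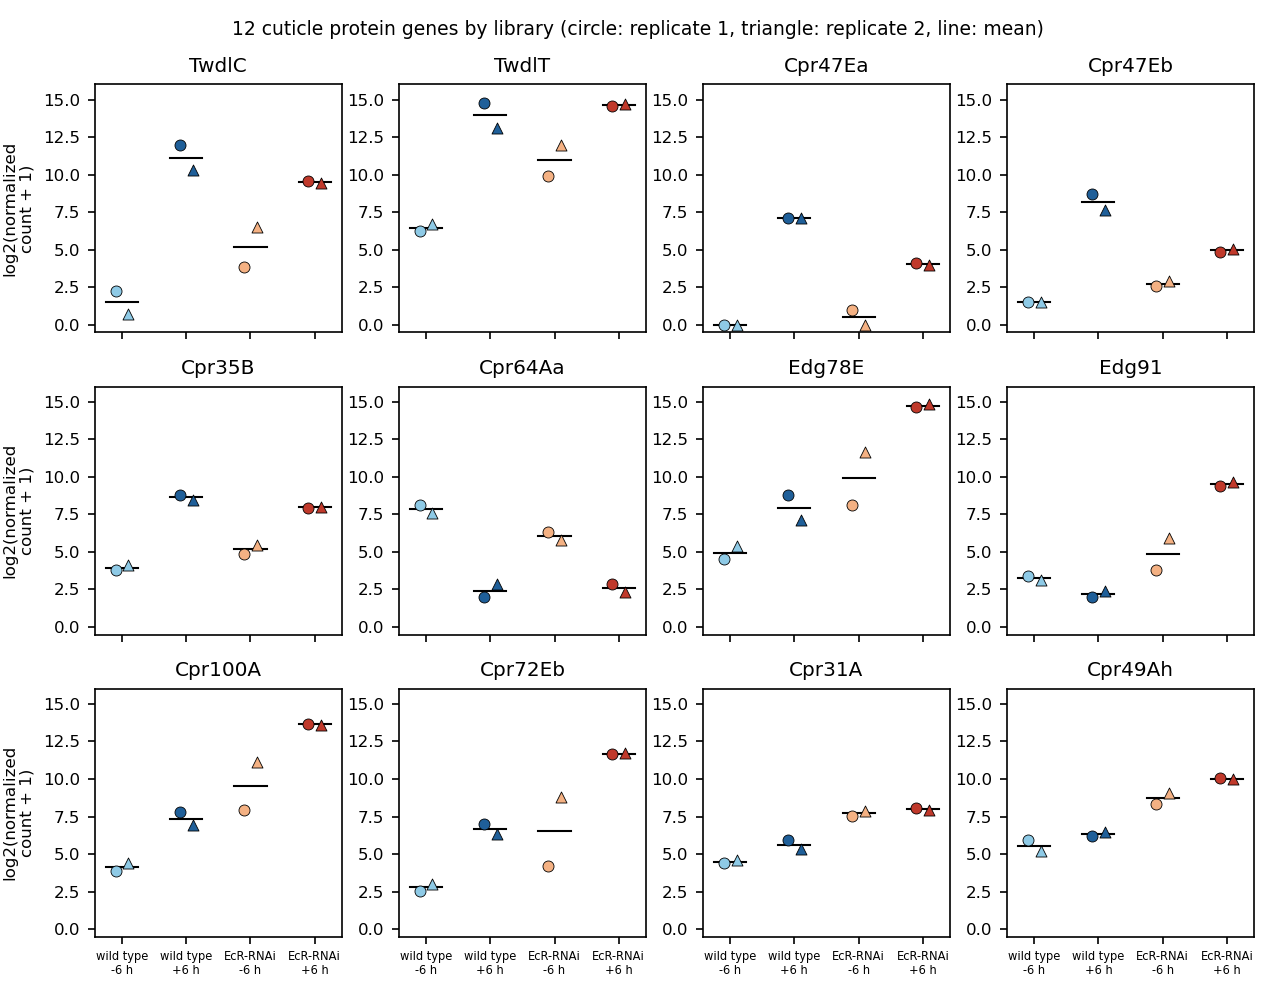
Levels of 12 cuticle protein genes in each library as log2(normalised count + 1) (vertical axis) for the 4 groups (horizontal axis), with circles for replicate 1, triangles for replicate 2 and a line at their mean. Edg78E and Edg91 are highest in EcR-RNAi at +6 h, Cpr47Ea and Cpr47Eb in wild type at +6 h, and Cpr64Aa is higher at -6 h in both genotypes.

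The second comparison gives the same stage step in EcR-RNAi wings. There 14 of the 35 rose and 3 fell, where 12.1% and 3.88% of all tested genes did, 16.0% in either direction. Their median log2 fold change was 3.25, and that of all tested genes was -0.00. Of the Cpr genes 12 rose and 3 fell, 1 of the 4 Tweedle genes rose, Edg91 rose, and no Lcp gene passed the test. Of the 35 genes, 11 rose and 3 fell in both genotypes, 7 rose by the test in wild type alone and 3 in EcR-RNAi alone, and 11 passed in neither. The same cross-count was not made over all tested genes, so it does not set the 35 apart. Being called in one genotype and not in the other does not show a difference, which the interaction tests.

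Cpr62Bc went from 1.95 and 0 normalised counts at -6 h, 2 reads in all, to 56.6 and 34.5 at +6 h, a ratio of reads of 49.8 (exact Clopper-Pearson interval 13.4 to 418; fitted log2 fold change 4.72 ± 0.82, limma padj = 0.00251). Edg91 went from 12.7 and 59.8 to 682 and 788 (4.67 ± 0.61, limma padj = 0.00151). Cpr47Ec went from 3.90 and 11.5 to 114 and 121 (3.93 ± 0.70, limma padj = 0.00282). In these genes both libraries at +6 h exceeded both at -6 h. The stages did not overlap, in either direction, in 33 of the 35 genes and in 60.0% of all tested genes. Cpr97Eb went from 5.85 and 40.1 to 231 and 259 (3.87 ± 0.78, limma padj = 0.0229), and Cpr47Ee from 6.82 and 17.2 to 141 and 162 (3.67 ± 0.47, limma padj = 5.3e-04). Cpr47Ea, with 1 read at -6 h, went to 16.0 and 14.8, a ratio of reads of 34.4 (exact Clopper-Pearson interval 5.69 to 1408; fitted log2 fold change 3.54 ± 0.56, limma padj = 0.00129).

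Cpr66Cb went from 5.85 and 5.73 to 43.1 and 62.1 (2.96 ± 0.53, limma padj = 0.0028), and Cpr35B from 28.3 and 43.4 to 242 and 255 (2.79 ± 0.24, limma padj = 1.9e-05). Cpr47Eb went from 4.87 and 6.55 to 28.3 and 32.6 (2.23 ± 0.40, limma padj = 0.00279), far below its wild-type level at that stage. Cpr66D went from 155 and 289.9 to 522 and 640.2 (1.44 ± 0.35, limma padj = 0.0352), and Cpr78E from 226 and 342 to 750.4 and 718 (1.40 ± 0.17, limma padj = 2.1e-04). Cpr49Ah and Cpr12A rose by 1.30 and 0.67 on the log2 scale.

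TwdlE rose from 939.6 and 1761 to 12492 and 11930.3 (3.25 ± 0.66, limma padj = 0.0419). TwdlT, at 959 and 4041 against 23949.5 and 26152, did not pass the test (3.67 ± 0.92, limma padj = 0.0755), nor did TwdlC, at 13.6 and 91.7 against 779 and 705 (4.33 ± 1.20, limma padj = 0.0952). Other genes with many reads at +6 h also did not pass. Edg78E stood at 279.7 and 3196 against 25742 and 29329.5 (4.86 ± 1.36, limma padj = 0.0989), Cpr100A at 245 and 2194 against 13193 and 12604 (4.13 ± 1.14, limma padj = 0.0957), and Cpr65Ec at 158 and 1275 against 11104 and 14578 (4.82 ± 1.10, limma padj = 0.0603). In these genes the libraries at -6 h differed by 4-fold or more, except in TwdlE. The stages did not overlap in them.

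Cpr64Aa fell from 80.9 and 53.2 to 6.15 and 3.95 (-3.49 ± 0.40, limma padj = 1.3e-04). Cpr49Ag fell from 592 and 574 to 376 and 405 (-0.58 ± 0.16, limma padj = 0.0311), and Cpr49Ac from 3026 and 3287 to 2174 and 2453 (-0.45 ± 0.12, limma padj = 0.0218). These 3 genes were also the ones that fell in wild type.

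Of the 17 calls, 8 held in every alternative. With replicate 2 of EcR-RNAi at -6 h left out, 21 genes rose and 1 fell, and Cpr49Ac, Cpr49Ag and TwdlE lost their calls (padj = 0.0651 to 0.102). Cpr100A, Cpr65Ec, Cpr72Ea, Cpr72Eb, Cpr78Cc, Cpr97Ea, Edg78E and Lcp65Ag2 were then called higher. Omitting replicate 1 of that group ended the calls of Cpr12A, Cpr49Ag and TwdlE (padj = 0.0619 to 0.168), the log2 fold change of Cpr97Eb fell to 2.58, and 2 genes fell. Without replicate 1 or replicate 2 of EcR-RNAi at +6 h, 9 and 8 genes rose and 1 fell. Calls of Cpr12A, Cpr49Ac, Cpr49Ag, Cpr49Ah, Cpr66D, Cpr97Eb and TwdlE ended in both (padj = 0.0646 to 0.21), and that of Cpr66Cb without replicate 2 (padj = 0.0557). Without either library of wild type at -6 h, Cpr66D, Cpr97Eb and TwdlE lost theirs (padj = 0.0596 to 0.0759). A fit of the 4 EcR-RNAi libraries alone ended the calls of Cpr49Ah, Cpr66D, Cpr97Eb and Edg91 (padj = 0.0507 to 0.172). The replicate block ended those of Cpr66D and TwdlE (padj = 0.0776 and 0.0819), the absence of a filter that of TwdlE (padj = 0.0601), and quantile scaling that of Cpr12A (padj = 0.0531). DESeq2 called 26 genes higher in this comparison, and limma without its trend and robust settings called 22 higher and 1 lower, with the calls of Cpr12A, Cpr49Ac and Cpr49Ag ended (padj = 0.055 to 0.0891).

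The third comparison sets EcR-RNAi against wild type at -6 h. Of the 35 tested genes 10 were higher in EcR-RNAi and 2 lower, where 7.51% and 3.36% of all tested genes were, 10.9% in either direction. The median log2 difference was 1.58 over the 35 and 0.00 over all tested genes. All 12 were Cpr genes. Of the 8 gut markers listed, 4 were tested, and all 4 were higher in EcR-RNAi at this stage. They reached the mean needed for testing only through that group, so these calls follow from the filter. Of the 7 tested fat body markers 5 were higher. The summed levels of both lists are given above. The part of gut and fat body in these differences was not tested.

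Cpr31A stood at 20.3 and 23.1 in wild type and at 188 and 235 in EcR-RNAi (log2 difference 3.22 ± 0.22 SE, limma padj = 1.5e-05). Cpr49Ah stood at 59.0 and 35.9 and at 326 and 544 (3.16 ± 0.29, limma padj = 4.5e-04). Cpr78E was at 91.0 and 94.8 and at 226 and 342 (1.57 ± 0.17, limma padj = 1.8e-04). Both EcR-RNAi libraries were above both wild-type libraries in these genes. The genotypes did not overlap in 28 of the 35 genes and in 55.3% of all tested genes. Cpr12A was at 642 and 607 against 1271 and 1536 (1.16 ± 0.16, limma padj = 9.5e-04). Cpr47Ec had no read in wild type and stood at 3.90 and 11.5 in EcR-RNAi, at least 6.93-fold higher (limma padj = 0.0198).

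Cpr47Ee was at 2.90 and 0.641 against 6.82 and 17.2 (2.24 ± 0.47, limma padj = 0.0137), and Cpr66D at 63.9 and 46.1 against 155 and 289.9 (1.95 ± 0.35, limma padj = 0.015). Cpr35B was at 12.6 and 16.7 against 28.3 and 43.4 (1.22 ± 0.24, limma padj = 0.00727), and Cpr56F at 21.3 and 19.2 against 40.0 and 54.0 (1.16 ± 0.29, limma padj = 0.0249). Cpr49Ag was at 323 and 393 against 592 and 574 (0.71 ± 0.16, limma padj = 0.0154). Cpr49Ac, which had the most reads of these genes in wild type at this stage, was lower, at 3026 and 3287 against 5867 and 5376 (-0.83 ± 0.12, limma padj = 8.7e-04). Cpr64Aa was lower as well, at 80.9 and 53.2 against 283 and 192 (-1.81 ± 0.40, limma padj = 0.0137).

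Larger differences did not pass the test where the EcR-RNAi replicates were far apart. Cpr100A was at 13.6 and 20.5 in wild type and at 245 and 2194 in EcR-RNAi (5.38 ± 1.14, limma padj = 0.0646). Edg78E was at 22.3 and 40.4 and at 279.7 and 3196 (4.93 ± 1.36, limma padj = 0.114). TwdlT was at 74.5 and 102 and at 959 and 4041 (4.48 ± 0.92, limma padj = 0.0585). The EcR-RNAi libraries of these genes differed from each other by 4-fold or more.

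Of the 12 calls, 5 held in every alternative. With replicate 2 of EcR-RNAi at -6 h set aside, 10 genes were higher and 1 lower, with the calls of Cpr47Ec, Cpr47Ee, Cpr56F and Cpr64Aa ended (padj = 0.0509 to 0.17) and Cpr100A, Cpr72Eb and Cpr97Ea called. Omitting replicate 1 of that group left 18 higher, Cpr100A, Cpr72Ea, Cpr72Eb, Cpr97Ea, Cpr97Eb, Edg78E, Edg91 and TwdlT among them. With replicate 1 of wild type at -6 h omitted, 7 were higher and 1 lower, as Cpr35B, Cpr47Ec, Cpr49Ag, Cpr56F and Cpr64Aa lost their calls (padj = 0.0534 to 0.119). With replicate 2 of that group omitted, 6 were higher and 1 lower, as Cpr47Ec, Cpr47Ee, Cpr56F, Cpr64Aa and Cpr66D lost theirs (padj = 0.053 to 0.132). Without either library of EcR-RNAi at +6 h the calls of Cpr47Ec and Cpr56F ended (padj = 0.055 to 0.0611). The 4-library fit ended the calls of Cpr35B, Cpr47Ec and Cpr47Ee (padj = 0.061 to 0.101), quantile scaling those of Cpr47Ee and Cpr56F (padj = 0.0826 and 0.0793), a pseudocount of 5 that of Cpr47Ec (padj = 0.0681), and limma without trend and robust that of Cpr49Ag (padj = 0.0636). DESeq2 called 21 genes higher.

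At +6 h, the fourth comparison, 15 of the 35 were higher in EcR-RNAi and 3 lower, where 21.3% and 21.6% of all tested genes were, 42.9% in either direction. The median log2 difference was 1.64 over the 35 and 0.00 over all tested genes. Of the Cpr genes 13 were higher and 3 lower, both Edg genes were higher, and no Lcp or Tweedle gene passed the test. Of the 7 tested fat body markers 3 were higher in EcR-RNAi at this stage too, Lsp1alpha, Lsp1beta and Lsp1gamma, by 2.01 to 2.99 on the log2 scale, with list sums of 450.4 and 318 in wild type and 850.1 and 979 in EcR-RNAi. Of the 6 tested haemocyte markers He and proPO-A1 were higher (2.77 and 2.19) and Hml and Pxn lower (-1.24 and -1.17), and no tested gut marker was called. Their part in these differences was not tested.

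Cpr78Cc showed the largest difference, at 13.4 and 1.05 normalised counts in wild type and at 1419.7 and 1380.1 in EcR-RNAi (log2 difference 8.01 ± 1.64 SE, limma padj = 0.0178). Edg91 was at 2.98 and 4.20 against 682 and 788 (7.33 ± 0.61, limma padj = 4.9e-05). Edg78E was at 435 and 136 against 25742 and 29329.5 (6.81 ± 1.36, limma padj = 0.0186). Both Edg genes were thus far above wild type in both libraries, by a ratio of means of 205 for Edg91 and 96.3 for Edg78E. Cpr100A was at 221 and 119.6 against 13193 and 12604 (6.30 ± 1.14, limma padj = 0.0137), and Cpr72Ea at 7.46 and 11.5 against 491 and 500.1 (5.59 ± 1.17, limma padj = 0.0141). Cpr47Ec was at 5.97 and 1.05 against 114 and 121 (4.98 ± 0.70, limma padj = 2.1e-04). Cpr49Ah was at 73.1 and 88.1 against 1049 and 1027 (3.68 ± 0.29, limma padj = 4.6e-05), and Cpr62Bc at 7.46 and 1.05 against 56.6 and 34.5 (3.44 ± 0.82, limma padj = 0.00599). The genotypes did not overlap in these genes, as was so for 31 of the 35 genes and for 73.5% of all tested genes.

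Cpr31A was at 59.7 and 38.8 against 262 and 239 (2.35 ± 0.22, limma padj = 1.6e-05), and Cpr66D at 143 and 90.2 against 522 and 640.2 (2.34 ± 0.35, limma padj = 0.00176). Cpr66Cb was at 7.46 and 17.8 against 43.1 and 62.1 (2.06 ± 0.53, limma padj = 0.00859), and Cpr49Ag at 146 and 106 against 376 and 405 (1.64 ± 0.16, limma padj = 1.7e-05). Cpr56F, Cpr12A and Cpr78E were higher by 0.63 to 1.16 on the log2 scale.

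The genes that were lower in EcR-RNAi at +6 h were Cpr47Eb, Cpr47Ea and Cpr35B. Cpr47Eb was at 410.1 and 203 in wild type and at 28.3 and 32.6 in EcR-RNAi (-3.21 ± 0.40, limma padj = 9.1e-05). Cpr47Ea was at 139 and 136 against 16.0 and 14.8 (-3.08 ± 0.56, limma padj = 0.00112), so both genes of this adjacent pair were lower. Cpr47Ec and Cpr47Ee, which form another run in the same region, differed from that pair: Cpr47Ec was higher, as given above, and Cpr47Ee, at 204 and 181 against 141 and 162, was not called (-0.35 ± 0.47, limma padj = 0.594). Cpr35B was at 450.4 and 343 against 242 and 255 (-0.66 ± 0.24, limma padj = 0.0446).

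No Tweedle gene passed at this stage. TwdlT was at 27787 and 8934 against 23949.5 and 26152 (0.67 ± 0.92, limma padj = 0.615) and TwdlE at 19780.4 and 6663 against 12492 and 11930.3 (0.09 ± 0.66, limma padj = 0.932), with overlapping groups in each. These standard errors do not show that the levels were alike. TwdlC was at 3998 and 1249 against 779 and 705 (-1.59 ± 1.20, limma padj = 0.358). Among the Lcp genes, Lcp65Ad was at 860.5 and 69.2 against 3983 and 5036 (4.19 ± 1.81, limma padj = 0.141) and Lcp65Ag2 at 99.9 and 11.5 against 872 and 1185 (4.84 ± 1.66, limma padj = 0.0801). Neither passed the test. Lcp65Ag2 was called at +6 h by DESeq2, by edgeR, by limma without trend and robust, and with either EcR-RNAi library at -6 h left out.

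**Figure D4:**
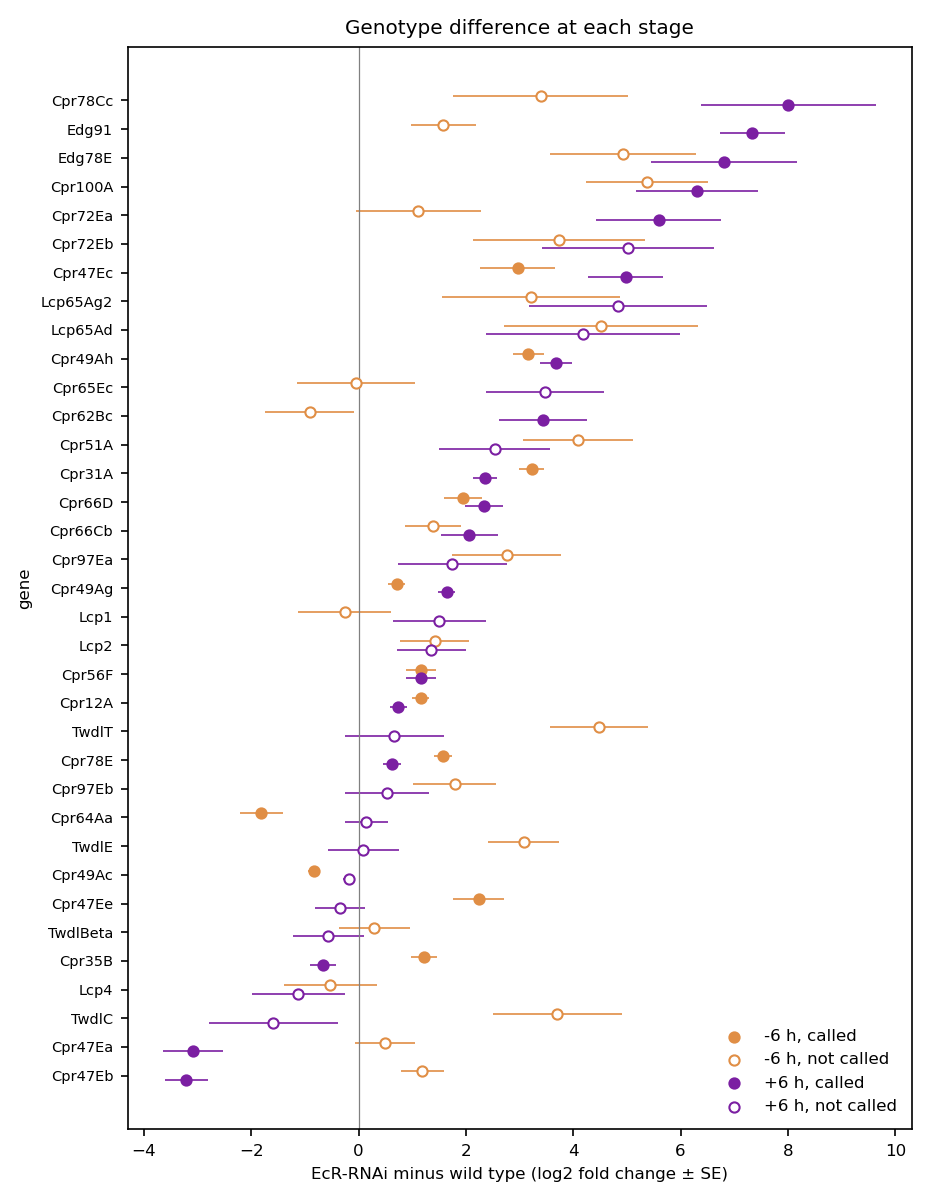
Log2 difference between EcR-RNAi and wild type (horizontal axis, ± SE) for each tested gene (vertical axis) at -6 h in orange and +6 h in purple, with filled points for called genes. Cpr78Cc, Edg91, Edg78E and Cpr100A stand farthest to the right at +6 h, and Cpr47Ea and Cpr47Eb farthest to the left.

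Of these 18 calls, 9 held in every alternative. With replicate 1 of wild type at +6 h omitted, 12 genes were higher and 2 lower, with the calls of Cpr100A, Cpr35B, Cpr66Cb, Cpr72Ea and Cpr78E ended (padj = 0.0507 to 0.257). With replicate 2 omitted, 9 were higher and 4 lower, as Cpr100A, Cpr56F, Cpr72Ea, Cpr78Cc, Cpr78E and Edg78E lost their calls (padj = 0.0541 to 0.0856), and the log2 difference of Cpr12A was 0.49. Without replicate 1 or replicate 2 of EcR-RNAi at +6 h, 10 and 9 were higher and 2 lower. The calls of Cpr100A, Cpr35B, Cpr78Cc, Cpr78E and Edg78E ended in both, that of Cpr62Bc without replicate 1, and those of Cpr56F and Cpr66Cb without replicate 2 (padj = 0.0536 to 0.174). The call of Cpr35B also ended with TMM or upper-quartile scaling, with no filter and in limma without trend and robust (padj = 0.055 to 0.074). Each of the 18 differences kept its direction in all of these fits.

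The fifth comparison, the genotype by stage interaction, tests whether the stage response in EcR-RNAi differs from that in wild type. It was called for 10 of the 35 genes, 5 with a higher and 5 with a lower log2 change in EcR-RNAi, where 11.6% and 15.4% of all tested genes were called, 27.0% in either direction. The median was -0.00 over the 35 and -0.00 over all tested genes. Edg91 had the largest, 5.75 ± 0.86 (limma padj = 0.00207): it rose in EcR-RNAi and did not in wild type, where its values were 9.68 and 7.69 before and 2.98 and 4.20 after (-1.08 ± 0.61, limma padj = 0.17). Cpr62Bc followed with 4.35 ± 1.16 (limma padj = 0.0174), on 2 to 6 reads in each of the other groups. It reaches the mean of 10 only through EcR-RNAi at +6 h, so this call too follows in part from the filter.

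Cpr47Eb rose less in EcR-RNAi, with an interaction of -4.39 ± 0.56 (limma padj = 2.2e-04). Cpr47Ea had a fitted interaction of -3.57 ± 0.79 (limma padj = 0.00649), on groups with 0 and 1 read at -6 h. By reads it rose at least 119-fold in wild type and 34.4-fold in EcR-RNAi, with an exact Clopper-Pearson interval of 5.69 to 1408. These ratios do not show a smaller rise of Cpr47Ea in EcR-RNAi. Its interaction call also rests on wild type at +6 h, the only group that brought it over the mean. Cpr47Ee had an interaction of -2.58 ± 0.67 (limma padj = 0.0174), and was higher in EcR-RNAi at -6 h and not called between genotypes at +6 h. Cpr35B had an interaction of -1.88 ± 0.34 (limma padj = 0.00206) and Cpr78E of -0.95 ± 0.24 (limma padj = 0.0126). The 3 genes that fell in both genotypes fell less in EcR-RNAi, with interactions of 1.95 ± 0.56 for Cpr64Aa (limma padj = 0.0249), 0.93 ± 0.23 for Cpr49Ag (padj = 0.0103) and 0.65 ± 0.16 for Cpr49Ac (padj = 0.0126). At +6 h Cpr64Aa was at 2.98 and 6.29 in wild type and at 6.15 and 3.95 in EcR-RNAi, and these groups overlapped.

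No Tweedle gene passed the interaction test. The estimates were -5.30 ± 1.70 for TwdlC (limma padj = 0.0954), -3.81 ± 1.30 for TwdlT (limma padj = 0.11), -2.99 ± 0.94 for TwdlE (limma padj = 0.0889) and -0.86 ± 0.93 for TwdlBeta (limma padj = 0.554). DESeq2 and limma without its trend and robust settings called the first 3.

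**Figure D5:**
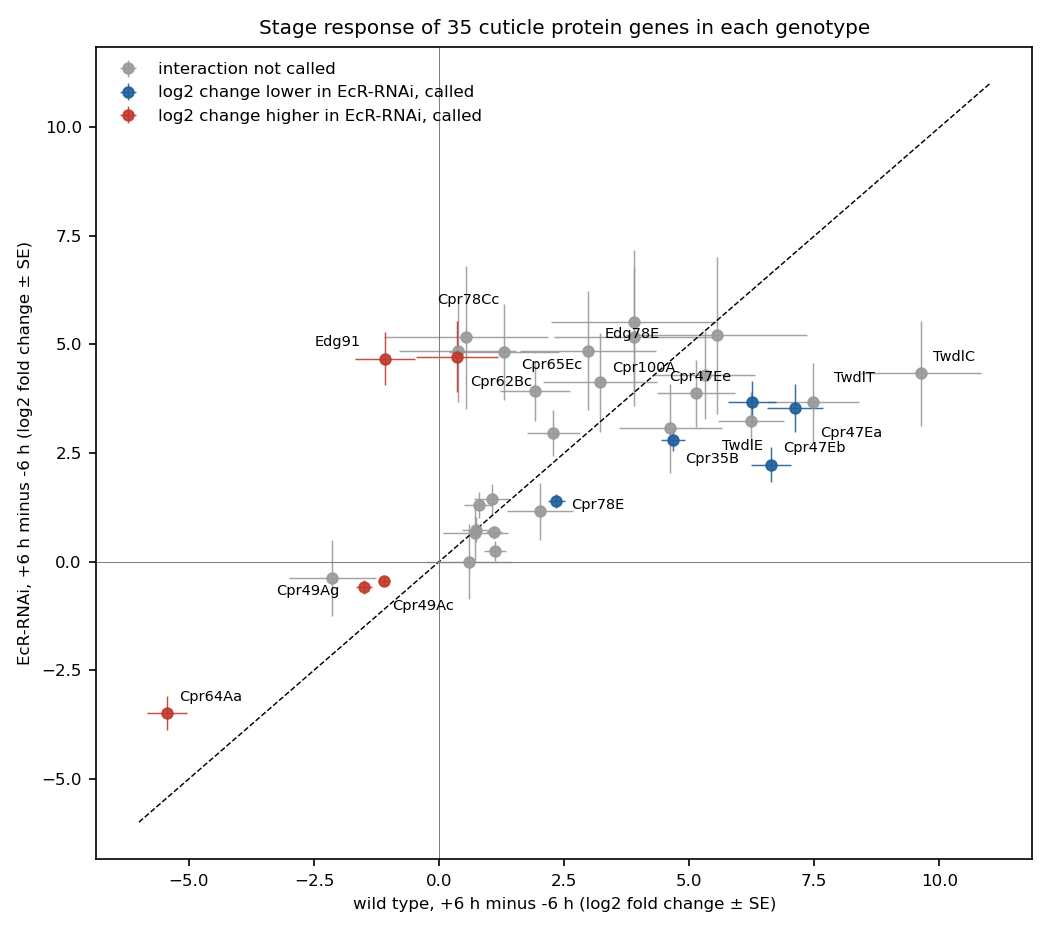
Log2 change from -6 h to +6 h in wild type (horizontal axis) against that in EcR-RNAi (vertical axis) for the 35 tested genes, with bars of 1 SE and a dashed line where both are equal. Points in blue and red passed the interaction test: Edg91 lies above the line and Cpr47Eb below it.

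Edg91, Cpr35B and Cpr47Eb kept their interaction call in every alternative. Quantile scaling ended the calls of Cpr47Ee (padj = 0.0513) and Cpr64Aa (padj = 0.134). edgeR and DESeq2 ended the calls of Cpr47Ea (padj = 0.101 and 0.0898) and Cpr64Aa (padj = 0.12 and 0.105). When replicate 1 of wild type at +6 h was dropped, 3 were higher and 4 lower, as Cpr47Ee, Cpr49Ac and Cpr64Aa lost their calls (padj = 0.0503 to 0.066). When replicate 2 was dropped, Cpr62Bc lost its call (padj = 0.0516) and 8 were lower. In the fit lacking replicate 2 of EcR-RNAi at -6 h, Cpr64Aa lost its call (padj = 0.0771) and 9 were higher, among them Cpr100A, Cpr65Ec, Cpr72Ea, Cpr72Eb and Cpr78Cc. In the fit lacking replicate 1 of EcR-RNAi at +6 h, 3 were higher and 4 lower, and Cpr47Ee, Cpr62Bc and Cpr64Aa lost their calls (padj = 0.069 to 0.0916). In that lacking replicate 2 of the same group, 2 were higher and 3 lower, and Cpr47Ee, Cpr49Ac, Cpr49Ag, Cpr62Bc and Cpr78E lost theirs (padj = 0.0518 to 0.075). Dropping replicate 1 of wild type at -6 h ended the call of Cpr64Aa (padj = 0.116), and dropping replicate 2 that of Cpr62Bc (padj = 0.057).

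Neighbouring genes did not always share a pattern. In the 72E run, Cpr72Ea and Cpr72Eb were high in EcR-RNAi at +6 h, Cpr72Eb at 3256 and 3334 against 127 and 79.7 in wild type (5.02 ± 1.60, limma padj = 0.0691), while Cpr72Ec had at most 2 reads in any library. Edg78E lies next to Cpr78Ca and Cpr78Cb, which had at most 11 and 4 reads in any library. In the 65A run, Lcp65Ag2 and Lcp65Ad were tested, while Lcp65Ag1, a close copy by name, had 1 read in all. In the 64A run, Cpr64Aa fell by stage, while Cpr64Ac, untested, had 3 reads at -6 h and 20 at +6 h in wild type.

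A few genes under the mean had reads mainly in a single group. Cpr50Ca had no read in wild type at -6 h and 22 and 11 reads at +6 h, at least 17.6-fold higher, and 6 reads in EcR-RNAi at +6 h. Cpr64Ac had 20 reads in wild type at +6 h and none in EcR-RNAi, at least 7.50-fold lower. In the other direction Lcp65Ae had 36 reads in EcR-RNAi at +6 h and none in wild type, at least 10.7-fold higher, and Lcp65Ac had 22 and none, at least 6.52-fold higher. Pcp had 25 reads in EcR-RNAi at +6 h and 3 at -6 h, a ratio of 10.3 (exact Clopper-Pearson interval 3.13 to 53.0). Its reads may be hard to separate from those of Gart, in which it lies. With no filter on low values, limma called Cpr50Ca and Cpr64Ac by stage in wild type, and Lcp65Ac, Lcp65Ae and Pcp by stage in EcR-RNAi.

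Genes that make, shape and tan the chitin sheet were listed for comparison. Of 25 genes for chitin synthesis, assembly and turnover, 21 rose and 1 fell with stage in wild type, and 12 rose and 2 fell in EcR-RNAi. At -6 h 8 were higher and 2 lower in EcR-RNAi, at +6 h 6 were higher and 8 lower, and the interaction was called lower for 11 and higher for 1. Over all tested genes, 29.1% rose and 26.7% fell in wild type, and 12.1% and 3.88% did in EcR-RNAi. Between genotypes 7.51% were higher and 3.36% lower at -6 h, and 21.3% and 21.6% at +6 h. The interaction was lower for 15.4% and higher for 11.6%. These shares also apply to the tanning, ecdysone and trachea counts below. The chitin synthase gene kkv went from 1607 and 1396 to 5794 and 5964 in wild type and from 1917 and 2519 to 4199 and 4676 in EcR-RNAi (interaction -0.96, limma padj = 0.00479). The chitinase gene Cht5 went from 398 and 463 to 7252 and 5407 in wild type and from 371 and 432 to 1383 and 1458 in EcR-RNAi (interaction -2.04, limma padj = 5.1e-05). Both libraries of EcR-RNAi at +6 h were below both of wild type for these genes. The chitin-binding protein gene obst-A was higher in EcR-RNAi at +6 h, at 22557 and 23096 against 15693 and 12025 (0.73, limma padj = 0.00614).

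Of 10 tested genes for tanning and crosslinking, 7 rose and 1 fell in wild type and 4 rose in EcR-RNAi. Against wild type, 3 were higher in EcR-RNAi at -6 h, and 3 were higher and 2 lower at +6 h. The interaction was called lower for 2, ple, which encodes tyrosine hydroxylase (-1.73, limma padj = 0.00335), and the phenol oxidase gene laccase2 (-1.74, limma padj = 1.7e-05). laccase2 reached 6257 and 5676 in wild type at +6 h and 2629 and 2708 in EcR-RNAi.

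Of 16 ecdysone cascade regulators, 8 rose and 3 fell in wild type, and 9 rose and 1 fell in EcR-RNAi. Against wild type, 3 were higher and 7 lower at -6 h, 2 were higher and 7 lower at +6 h, and the interaction was higher for 5 and lower for 4. The nuclear receptor gene ftz-f1, active in the mid-prepupal window, went from 163 and 106 to 6359 and 4085 in wild type and from 623 and 464 to 2278 and 2069 in EcR-RNAi (interaction -3.25, limma padj = 0.00212). The repressor gene Blimp-1 went from 6124.5 and 5711 to 650.2 and 687 in wild type, and stood at 1518 and 857 and then at 1336 and 989 in EcR-RNAi (interaction 3.16, limma padj = 0.00141). At -6 h ftz-f1 was thus above wild type and Blimp-1 below it in both EcR-RNAi libraries. The trachea also makes cuticle. Of its 7 tested markers, Gasp, verm, serp and uif rose by stage in wild type (1.85 to 2.08 on the log2 scale) and btl fell, and none was called by stage in EcR-RNAi or between genotypes at -6 h. At +6 h Gasp was higher in EcR-RNAi, at 11871 and 13434 against 5457 and 1894 (1.97, limma padj = 0.042), and uif was lower (-1.38, limma padj = 7.7e-06). Gasp, verm and serp also stand in the chitin list. Of the markers outside the chitin list, btl lay between 31.3 and 80.3, dys between 383 and 517 and trh between 598 and 802 in all libraries. The remaining marker, uif, stood at 22363 and 22572 in wild type at +6 h and between 5632 and 8709 elsewhere. The part of the trachea in the results was not tested.

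In the authors' deposited table, which gives an adjusted p for 49 to 51 of the 114 genes in each comparison, more genes passed a threshold of 0.05. The authors' deposited table has 25 higher and 4 lower with stage in wild type and 28 higher and 3 lower in EcR-RNAi. Between genotypes the authors' deposited table has 20 higher and 2 lower at -6 h and 19 higher and 4 lower at +6 h. The share of all genes passing in that table was not worked out, so these counts do not set the 114 genes apart.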

How the data were processed

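RNA was measured in 8 wing libraries. Levels come from the authors' deposited normalized counts, a signal equal to reads over a library's size factor: multiplying back gave whole reads for 100% of values, within 0.1 of a read. STAR 2.5.2b, SAMtools 1.3.1, Subread 1.24.2, DESeq2 1.14.1 and the build dm3 are listed per the submitters' processing notes, without settings. How strand was handled is not stated in the labels or notes. Levels of overlapping or antisense genes are therefore uncertain. A second deposited table gives the authors' own log2 fold changes and adjusted p-values. No column lacked a sample. The CUT&RUN peak lists were not used here, because the gene positions at hand are of Release 6 and the peaks are in dm3. No sequences are printed, since none were at hand.

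Genes with a mean of at least 10 were tested on log2(normalized count + 1) by limma 3.58.1 (R 4.3.3; trend and robust both on), in a model of the 4 group means over all 8 libraries, with Benjamini-Hochberg adjustment (padj) over all 7775 genes. A gene was called at padj under 0.05. Fold changes on this scale understate changes of low genes. Where a group had no read, a bound was set from a floor of 3 reads over the group, and with 1 to 3 reads a ratio of reads is given with an exact 95% Clopper-Pearson interval. Both describe counting error alone. Chitin, tanning, ecdysone and cell type lists were described by counts only. In each comparison up to 12 called genes each way are given with full statistics, and per-library values for the genes with the highest means and those called between genotypes or in the interaction. Genes and lists were chosen with earlier results of these data known. Alternatives were other pseudocounts, filters and scalings, edgeR 4.0.16 and DESeq2 1.42.0 on the recovered reads, limma without trend and robust, only the libraries compared, a replicate block and each library left out. Symbols were matched to RefSeq for 113 genes, and 1 matched a synonym. Figures were drawn with matplotlib 3.10.9.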

Additional observations from a re-analysis of the deposited data

Results flagged for a closer look

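A stage response that differed between wild type and EcR-RNAi, by the interaction test, drew attention to 10 cuticle protein genes. They are 28.6% of those tested, near the 27.0% called over all tested genes, so their number is no trait of cuticle protein genes. The values are the wild-type log2 change subtracted from the EcR-RNAi one. The difference was -4.39 for Cpr47Eb, -3.57 for Cpr47Ea, -2.58 for Cpr47Ee, -1.88 for Cpr35B and -0.95 for Cpr78E. These genes rose less in EcR-RNAi on the scale of log2(normalised count + 1), which for Cpr47Ea rests on 0 and 1 read at -6 h. Of them, Cpr78E was called higher in EcR-RNAi at both stages, Cpr47Ee at -6 h alone, and Cpr35B higher at -6 h and lower at +6 h. The difference was 0.65 for Cpr49Ac, 0.93 for Cpr49Ag and 1.95 for Cpr64Aa, which fell less in EcR-RNAi on that scale. It was 4.35 for Cpr62Bc and 5.75 for Edg91, which rose in EcR-RNAi and were not called in wild type. Cpr47Ea, Cpr47Eb, Cpr47Ee, Cpr62Bc and Edg91 each have at least 1 group with 6 reads or fewer, in Edg91 wild type at +6 h.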

How the results depend on the processing

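No log2 fold change of a called gene changed sign in any alternative. Leaving out each library in turn gave 12 to 22 genes higher and 3 to 5 lower for the stage response in wild type, 8 to 21 and 1 to 3 in EcR-RNAi, 6 to 18 and 1 to 2 for the genotype difference at -6 h, 9 to 19 and 2 to 4 at +6 h, and 2 to 9 and 3 to 8 for the interaction. A group left with 1 library was assumed to vary like the others. Other counts moved by over 1.5 times as follows. For wild type by stage, 5 genes were lower with no filter and 5 with quantile scaling, against 3. For EcR-RNAi by stage, DESeq2 gave 26 higher, and limma without trend and robust 22 higher and 1 lower, against 14 and 3. At -6 h DESeq2 gave 21 higher, against 10. At +6 h 7 were lower with no filter and 5 with a filter of 10 in 2 libraries, against 3. In the interaction 8 were higher with no filter, against 5, and 8 lower with limma without trend and robust, against 5. Apart from the added genes that a looser filter lets in, the cause was not tested. A mean of at least 5 or 20 would test 42 or 31 genes, against 35. Quantile scaling moved the all-gene median by -0.23 in the wild-type stage response and by -0.15 in that of EcR-RNAi, and upper-quartile scaling by -0.16 in wild type. Increases made up 52.1% of all calls by stage in wild type, against 36.0% with quantile and 40.8% with upper-quartile scaling. In EcR-RNAi they made up 75.7%, against 45.3% and 57.2%. Whether equal replicate numbers share a batch is not in the labels. Differences between replicates correlated at -0.15 to 0.13 between groups, which cannot settle it, as each group gives only 1 such difference per gene. With the replicate block 20 genes were called by stage in wild type, 19 of them also without it, 16 in EcR-RNAi, 15 of them shared, 12 at -6 h, 18 at +6 h and 10 in the interaction. The alternatives planned for EcR peaks near these genes were not run. At the depths here, genes under the mean of 10 allow no statement about small changes.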
